A study of Mus musculus with 5 samples.

Results

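The 39 Hox cluster genes of the mouse, taken by symbol as Hoxa, Hoxb, Hoxc or Hoxd followed only by a number, are described here out of 27179 genes in the count tables: 11 in the HoxA cluster, 10 in HoxB, 9 in HoxC and 9 in HoxD. The study measured acetylation of lysine 14 of histone H3 (H3K14ac) by CUT&Tag, a method that tethers Tn5 transposase to an antibody on chromatin, so that DNA near the mark is cut and sequenced. The cells were LSK cells, the bone marrow fraction that holds blood stem and early progenitor cells, sorted from male C57BL/6 mice. The 2 genotypes compared had 2 libraries each: heterozygous controls, Hbo1def/+; T/+, and knockouts, Hbo1def/def; T/+. What T/+ stands for is not given in the sources used here. All mice received poly(I:C), which induces the Mx1-cre recombinase used to generate both genotypes. Mx1-cre acts in blood cells and in other cells that respond to interferon. The labels do not tie the 2 libraries of a group to separate animals. The p-values below therefore reflect only how these libraries differ from each other, which may be technical.

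Hox genes encode homeodomain transcription factors that give cells their identity along the body axis, and their order along each cluster, by paralog number, follows the order of the body regions where they act. In blood, Hoxa9 and Hoxb4 are known for promoting self-renewal of stem and progenitor cells, with TALE homeodomain proteins such as Meis1 as partners on DNA. HBO1, also named KAT7, is a histone acetyltransferase that acetylates H3K14 in complexes with BRPF scaffold proteins. In leukemia cells HBO1 is known for sustaining expression of HoxA genes.

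Each gene had 3 counting windows: its gene body, the 5 kb upstream of its start and the 5 kb downstream of its end. Totals per library were 4723549 to 12386891 counts over gene bodies, 869859 to 1164409 upstream and 677213 to 1260351 downstream. The tables were scaled separately, to CPM (counts relative to library size, with edgeR's TMM factors), and no spike-in is named in the labels, so a fold is a change relative to the other genes of the same table and not of the total amount of mark. In a bulk library, more cells carrying the mark and more mark per cell cannot be told apart. Counts of a histone mark at Hbo1 do not check its deletion. Of 29 marker genes, the 8 LSK markers summed to 413 to 506 CPM upstream in controls and 554 to 558 in knockouts, and 5 endothelial and stromal markers to 301 to 385 and 158 to 180. The summed upstream levels of the lineage markers ran from 237 to 273 CPM in controls and 140 to 196 in knockouts for 4 T cell genes, from 187 to 243 and 115 to 157 for 3 B cell genes, from 341 to 399 and 366 to 634 for 5 granulocyte and monocyte genes, and from 221 to 235 and 195 to 230 for 4 erythroid genes. Over gene bodies the LSK markers summed to 1282 to 1458 CPM in controls and 1009 to 1127 in knockouts, the reverse order of the upstream sums. Downstream the T cell markers summed to 182 to 183 CPM in controls and 252 to 442 in knockouts. The B cell markers summed to 98.9 to 110 and 185 to 324, so both lists were again the reverse of upstream. These sums mix unlike genes: log2 folds, knockout over control, ran from -0.20 to 3.58 for T cell genes and from -0.03 to 2.47 for B cell genes. The median was 0.36 in both lists. Of the 29, Hbb-bs and Ms4a1, were at 0 over the gene body in all libraries, and neither was at 0 upstream. The part of these cell types in the Hox values was not tested.

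Neighbouring Hox genes lie so close that their windows share DNA. Upstream, 17 of the 39 windows overlapped no other gene's upstream window, against 31 gene bodies and 20 downstream windows. Windows of 1 class that lay wholly inside other genes' windows of that class were mostly empty: 1071 of 1153 such gene bodies in the whole table held no count in any library, against 0.90% of gene bodies with at least 1000 bases of their own. Hoxa4, Hoxa5 and Hoxa6, inside the annotated span of Hoxa3, and Hoxd4, inside that of Hoxd3, lie in that layout and held 0 counts over the gene body in all 4 libraries, and so did the downstream window of Hoxa7. Their zeros give no measure of the mark. The 3 classes were counted apart, so a read in DNA covered by windows of different classes could enter each of them, and overlapping windows are not independent measurements.

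The stretches before the Hoxb4 and Hoxa9 starts are shown because the data bear on them. The Hoxb3 upstream window begins inside the first. By an annotated span that is approximate for Hoxa9, the Hoxa9 upstream window holds the second. Both are the 250 bases before the RefSeq start (GRCm38.p6), 5′ to 3′ on the gene's strand, at chr11:96318017-96318266 (plus strand) and chr6:52227371-52227620 (minus strand), with CG dinucleotides in capitals.
Hoxb4: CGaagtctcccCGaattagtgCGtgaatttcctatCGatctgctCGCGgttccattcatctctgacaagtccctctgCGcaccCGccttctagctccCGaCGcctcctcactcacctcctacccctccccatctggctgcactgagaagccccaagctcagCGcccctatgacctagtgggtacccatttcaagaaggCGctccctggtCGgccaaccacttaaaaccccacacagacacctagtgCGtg
Hoxa9: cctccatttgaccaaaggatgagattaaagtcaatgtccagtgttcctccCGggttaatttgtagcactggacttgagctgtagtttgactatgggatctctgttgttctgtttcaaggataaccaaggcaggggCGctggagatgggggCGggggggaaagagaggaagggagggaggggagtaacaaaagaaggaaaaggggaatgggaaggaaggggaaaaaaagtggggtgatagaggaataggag
The Hoxb4 stretch held 14 CG dinucleotides and the Hoxa9 stretch 3, and 29.4% and 71.0% of 32851 RefSeq promoter entries of this length held at least as many. The 24 entries of 22 Hox genes had a median of 12.5, from 2 to 35, against a median of 6 over all entries. CG dinucleotides are shown because genes with a CpG-rich start and other genes differed in the whole table, as given further on.

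The miR-10 and miR-196 families are coded inside the clusters. Mir10a lies between Hoxb5 and Hoxb4, outside every called Hox window, and its own downstream window covers the Hoxb4 body; Mir196b lies inside the called upstream window of Hoxa9. MicroRNAs of both families are known to repress messenger RNAs, Hox transcripts among them, through the seed at bases 2 to 8, in capitals here as RefSeq gives the mature 5p strands.
miR-10a-5p: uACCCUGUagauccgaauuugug
miR-10b-5p: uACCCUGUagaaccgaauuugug
miR-196a-5p: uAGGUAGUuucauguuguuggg
miR-196b-5p: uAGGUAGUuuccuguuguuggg
The 4 mature strands come from 5 genes and fall into 2 seeds, ACCCUGU in the miR-10 family and AGGUAGU in the miR-196 family.

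In control cells the Hox genes held little H3K14ac. Their median density over gene bodies was 0.256 CPM per kb of deposited gene length, against 0.675 over all 27179 genes. Upstream the medians were 1.94 and 5.07 CPM per kb, and downstream 2.14 and 5.07. These use the full 5 kb, although many Hox windows share DNA. Per kb of unshared DNA, for genes with at least 1000 such bases, the medians were 2.525 and 5.68 upstream and 2.30 and 6.19 downstream. The ratio of the gene body medians was 0.379 with an SD of 0.0909 over the 2 control libraries. Dispersed homeobox genes, a list of 36 homeobox genes outside the clusters, had control medians of 4.25 CPM per kb upstream and 0.352 over the gene body. Levels were not the same in all clusters. HoxB had a median gene body density of 0.414 CPM per kb, HoxA and HoxC 0.256 and 0.247, and HoxD 0.195; with 4 HoxA and HoxD bodies unmeasurable, these medians carry those zeros.

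Within each cluster, the gene body with the most mark per kb in controls was that of Hoxb1 in HoxB, Hoxa7 in HoxA, Hoxc5 in HoxC and Hoxd12 in HoxD. Hoxb1, which patterns the hindbrain, had 1.78 and 3.07 CPM over its body in controls and 2.96 and 1.94 in knockouts. Its groups overlapped, and its fitted log2 fold was 0.00 ± 0.58 (SE). Hoxc5 had 0.889 and 1.98 CPM in controls and 1.30 and 2.24 in knockouts. Hoxd12, a limb patterning gene, had 0.790 and 1.19 in controls and 0.925 and 1.94 in knockouts. In both, the groups overlapped. At the low end of the measured bodies in each cluster per deposited length, Hoxa3 had 4.64 and 11.7 CPM over its long body in controls and 16.1 and 12.4 in knockouts. The groups did not overlap, and its log2 fold of 0.80 ± 0.45 did not pass (adjusted p = 0.144). Per kb of body not shared with other genes, Hoxa3 had 0.310 CPM in controls and Hoxa11 had less, 0.236. Hoxb8 had 0.395 and 0.594 CPM in controls and 0.925 and 0.596 in knockouts. Hoxc12 had 0.0988 and 0.198 CPM against 1.11 and 0.447, and Hoxd11 had 0 and 0.099 against 0 and 0.447. The bodies of Hoxb8, Hoxc12 and Hoxd11 had too few counts for the test.

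Upstream, the densest control window of each cluster was that of Hoxa7, Hoxb9, Hoxc6 and Hoxd1. Hoxb9 had 28.6 and 32.3 CPM in controls against 20.5 and 32.1 in knockouts, and these overlapped. Hoxd1 had 19.96 and 27.4 CPM against 18.2 and 13.3, so both knockouts lay below both controls, with a log2 fold of -0.59 ± 0.52 that did not pass the test. Hoxc6 had 13.9 and 13.3 CPM against 11.4 and 17.7, again with overlap. The lowest of each cluster were Hoxa10, at 0 counts in both controls and 5 and 2 in knockouts, Hoxb4, at 0 and 5 against 19 and 7, Hoxc5, at 0 and 4 against 3 and 2, and Hoxd4, at 2 and 0 against 0 and 0. These windows share most of their DNA with neighbours: 568 bases of Hoxa10's, 961 of Hoxb4's and 348 of Hoxc5's were their own, and none of Hoxd4's.

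**Figure D1:**
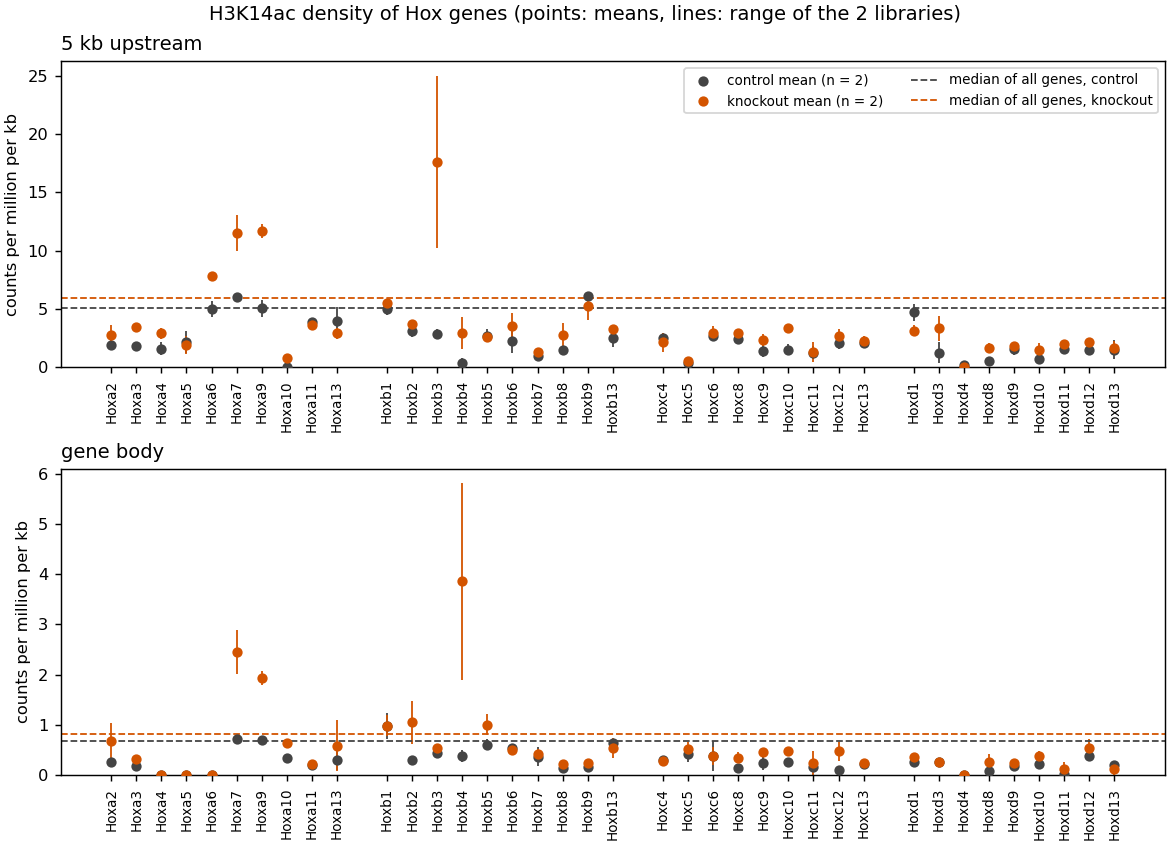
Mean H3K14ac density in CPM per kb for Hox genes upstream (top, per 5 kb) and over the gene body (bottom, per deposited length), control in grey and knockout in orange, with lines spanning the 2 libraries of a group and dashed lines at the median of all genes. Most Hox points lie below the dashed lines; in knockouts the upstream window of Hoxb3 and the gene body of Hoxb4 stand highest, with wide ranges between the 2 knockout libraries.

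Against the controls, 11 Hox windows of 9 genes rose in knockouts and none fell (edgeR quasi-likelihood test over all genes of a class, Benjamini-Hochberg adjusted p under 0.05). Upstream 4 of 30 tested members rose, where 24.0% of all tested genes rose and 14.3% fell. Over gene bodies 4 of 20 rose, where 23.1% of all genes rose and 15.2% fell, and downstream 3 of 27, where 10.8% rose and 2.29% fell. The Hox shares of 13.3%, 20.0% and 11.1% were below or near those of all genes. Without adjustment, 6 of 30, 4 of 20 and 10 of 27 tested Hox windows had p under 0.05. Of all genes tested, 11339 of 23200 upstream, 10378 of 21393 over the body and 5988 of 21566 downstream did so. The called windows were 7 in HoxA, 3 in HoxB, 1 in HoxD and 0 in HoxC, and they fell into 5 separate stretches of DNA. Members that failed the filter on low counts, 9, 19 and 12 in the 3 classes, had no test.

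**Figure D2:**
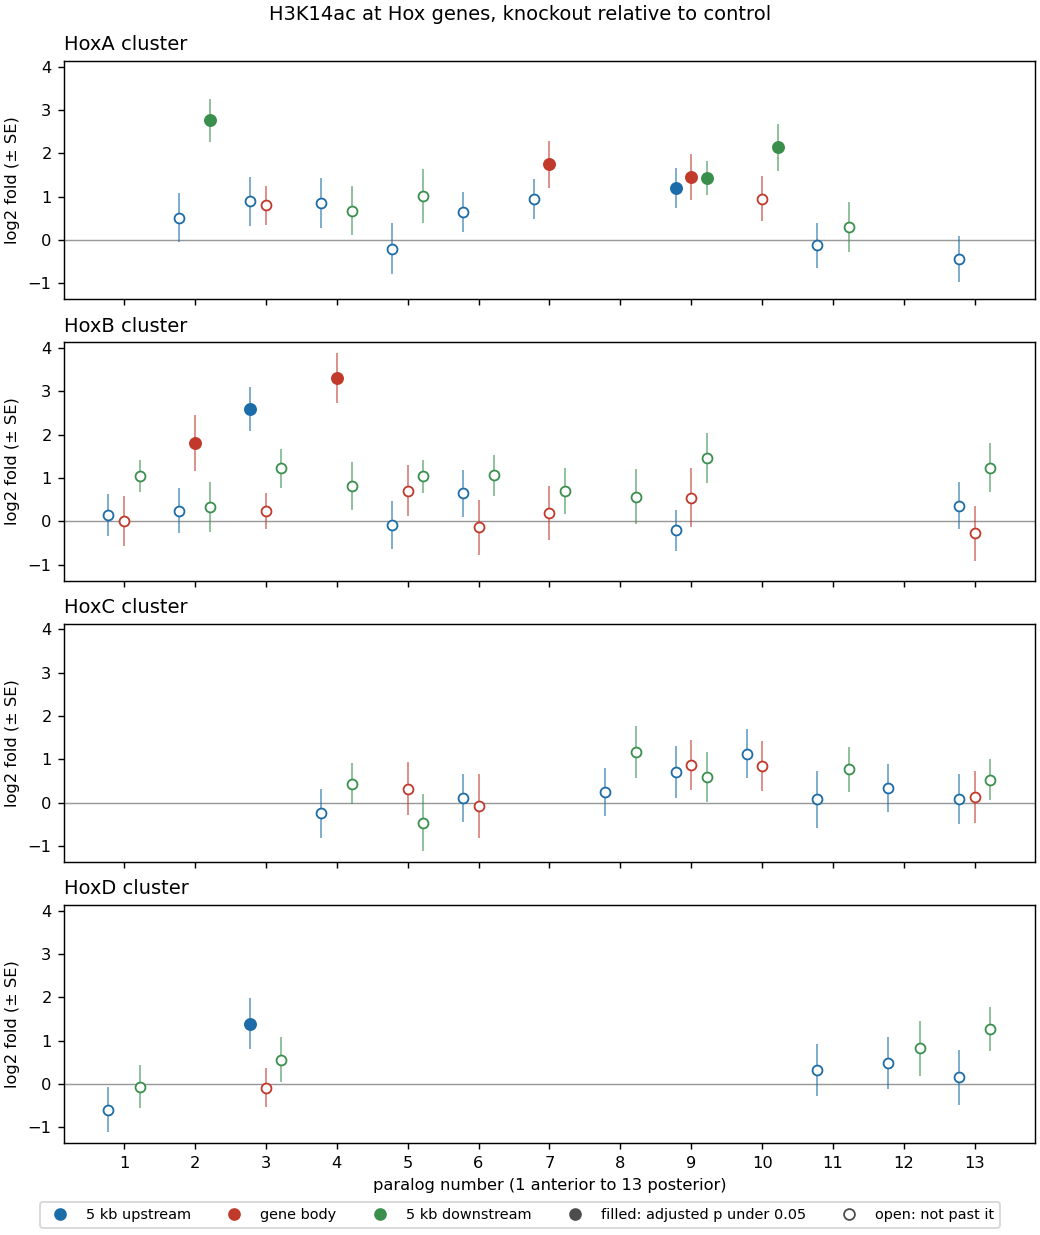
Log2 fold of H3K14ac, knockout over control, with its SE, for each tested Hox window by paralog number in the 4 clusters (colours: region classes; filled points: adjusted p under 0.05; missing points: not tested or not reported). The filled points lie at Hoxa2, Hoxa7, Hoxa9, Hoxa10, Hoxb2, Hoxb3, Hoxb4 and Hoxd3, and all are above 0.

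The gene with the largest fold was Hoxb4. Its body had 9 and 17 counts in controls and 106 and 43 in knockouts, or 0.889 and 1.68 CPM against 19.6 and 6.41. Both knockouts lay above both controls, and knockout replicate 1 was the higher of the 2 knockouts. The log2 fold was 3.31 ± 0.57 (SE; edgeR adjusted p = 5.24e-06), and it stood in each of 15 other settings run, from 2.33 without knockout replicate 1 to 4.03. Its density moved from the 32.0th percentile of all genes in controls to the 96.4th in knockouts. The body, at chr11:96318267-96321638, lies wholly inside the upstream window of Hoxb3, which had 14 and 20 counts in controls and 110 and 46 in knockouts, with a log2 fold of 2.60 ± 0.51 (adjusted p = 1.19e-05). The calls share this DNA, and the second was lost when either control or knockout replicate 1 was left out (adjusted p 0.0851 to 0.282). Mir10a's downstream window, which also covers the Hoxb4 body, had 9 and 22 counts in controls and 129 and 51 in knockouts, a log2 fold of 3.62 ± 0.58 (adjusted p = 0.000871). Beyond the end of Hoxb4, its downstream window had 7.83 and 14.4 CPM in controls against 22.4 and 17.1 in knockouts, a log2 fold of 0.81 ± 0.55 that did not pass. The Hoxb3 body, which overlaps that window, had 83 and 141 counts in controls and 66 and 94 in knockouts, with overlapping CPM and a log2 fold of 0.24 ± 0.42. On the other side, the Hoxb4 upstream window had 0 and 4.14 CPM in controls and 21.6 and 7.76 in knockouts, so both knockouts lay above both controls, but its counts were too few for the test. The Hoxb2 body, farther along the cluster at chr11:96351632-96354016, had 8 and 6 counts in controls and 19 and 10 in knockouts. It passed with a log2 fold of 1.81 ± 0.64 (adjusted p = 0.0204) and lost the call in 5 of 14 other settings.

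**Figure D3:**
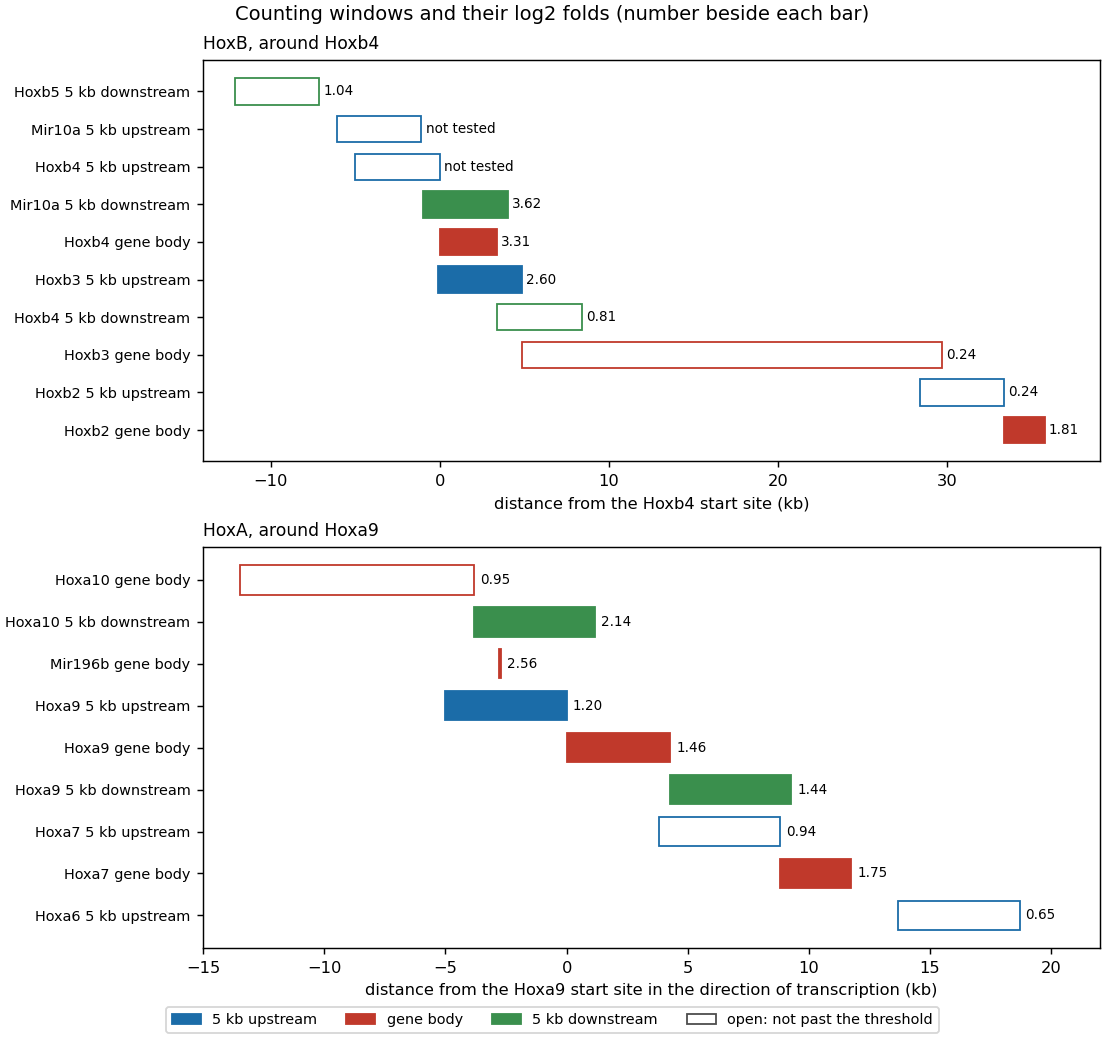
Counting windows around Hoxb4 (top) and Hoxa9 (bottom), in kb from the gene's start site; colours give the region class, filled bars passed the threshold, open bars did not, and the number beside each bar is its log2 fold, knockout over control. The filled bars overlap at the Hoxb4 body and form a nearly unbroken run from Hoxa10 to Hoxa7; ends of some bodies come from annotation whose length differs from the deposited one.

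In HoxA, the downstream window of Hoxa2, a gene that patterns the hindbrain, had 12 and 17 counts in controls and 65 and 30 in knockouts, or 9.39 and 13.6 CPM against 121 and 39.6. Both knockouts lay above both controls, with replicate 1 the higher. The log2 fold was 2.76 ± 0.49 (adjusted p = 0.00141), and it kept the call in all 15 other settings run, down to 1.77 without knockout replicate 1. The window lies at chr6:52157417-52162416, by an annotated span that is approximate for Hoxa2. The body of Hoxa2 held too few counts for the test.

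The longest stretch of called windows was 16.7 kb long, chr6:52215623-52232370. It ran from the body of Hoxa7 over Hoxa9 into the end of the Hoxa10 body, which the Hoxa9 upstream window reaches. The annotated span of Hoxa9 is approximate, and so are the positions and overlaps of its windows given here. Hoxa9 was the only member that passed in all 3 classes. Its upstream window had 21.7 and 29.0 CPM in controls and 61.4 and 55.4 in knockouts (log2 fold 1.20 ± 0.46, adjusted p = 0.0300). Its body had 2.47 and 2.18 CPM against 5.92 and 6.86 (1.46 ± 0.53, adjusted p = 0.0262), and downstream it had 43.0 and 48.7 against 138 and 112 (1.44 ± 0.39, adjusted p = 0.0202). The groups did not overlap in any of the 3, and the knockout libraries lay closer together here than at Hoxb4. Hoxa7's body had 1.98 and 2.28 CPM in controls and 8.51 and 5.96 in knockouts (log2 fold 1.75 ± 0.54, adjusted p = 0.00808). Its upstream window, one of the densest in controls, had 30.4 and 29.8 CPM against 50.01 and 65.4. The log2 fold of 0.94 ± 0.46 did not pass (adjusted p = 0.0910). This window lies in the called Hoxa9 downstream window and the called Hoxa9 body, mostly in the former. Much the same DNA thus passed in 1 class and not in another, and the Hoxa7 upstream window is no separate measurement. Hoxa10's downstream window had 8 and 9 counts in controls and 21 and 17 in knockouts (log2 fold 2.14 ± 0.54, adjusted p = 0.0129). Of its bases, 1116 lie in no other downstream window. All of it lies in called Hoxa9 windows, 3826 bases in the upstream window and 1174 in the body, so it is no separate measurement. The Hoxa10 body had 2.96 and 3.46 CPM against 6.47 and 5.96 and did not pass, at 0.95 ± 0.52. The Mir196b body, 85 bases inside the Hoxa9 upstream window, had 0 and 4 counts in controls and 7 and 8 in knockouts. The Hoxa9 upstream call was lost in 8 of 15 other settings, its body in 4 of 15 and its downstream window in 6 of 16, and the Hoxa7 body in 4 of 15. Each of these 4 calls was lost without either control library and with the replicate number as a block; the Hoxa10 downstream call was lost without control replicate 1 or knockout replicate 1.

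**Figure D4:**
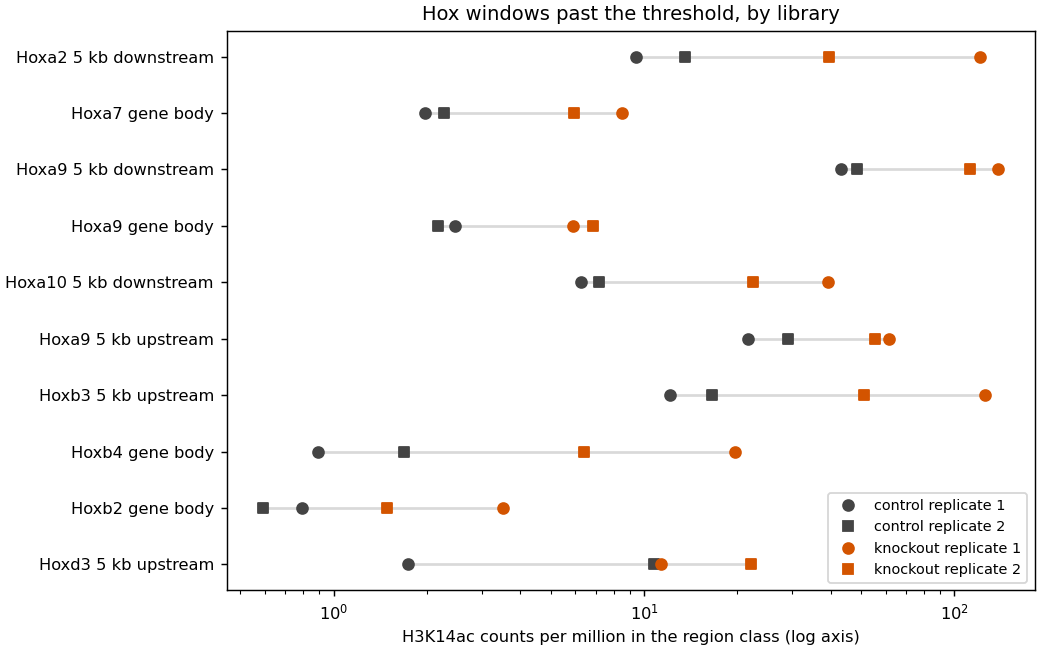
H3K14ac CPM on a log axis for 10 of the 11 Hox windows that passed the threshold, with controls in grey, knockouts in orange, circles for replicate 1 and squares for replicate 2. In every window shown both orange points lie to the right of both grey points; knockout replicate 1 is the higher knockout library in 9 of all 11.

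The remaining call was the upstream window of Hoxd3, chr2:74706993-74711992. By an annotated span that is approximate for Hoxd8, it lies wholly in the Hoxd8 body and the Hoxd8 downstream window. Both of these had too few counts for the test. The Hoxd3 upstream window had 2 and 13 counts in controls and 10 and 20 in knockouts, or 1.74 and 10.8 CPM against 11.4 and 22.2. The groups nearly met, and the log2 fold was 1.39 ± 0.59 (adjusted p = 0.0471). It was lost in 10 of 15 other settings and moved from 0.64 to 3.18 when single control libraries were left out. The Hoxd3 body had 9.38 and 9.90 CPM against 7.58 and 10.4, a log2 fold of -0.09 ± 0.45. In HoxC no window passed in any class, of 8 upstream, 5 bodies and 6 downstream that were tested. The highest HoxC folds were those of Hoxc8 downstream, 1.17 ± 0.60, and Hoxc10 upstream, 1.13 ± 0.57 (adjusted p 0.215 and 0.0992).

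By position, the median log2 folds of tested windows were 0.69 upstream, 0.80 over the body and 0.62 downstream for anterior genes (paralogs 1 to 4), 0.45, 0.55 and 1.03 for central genes (5 to 9) and 0.24, 0.48 and 0.82 for posterior genes (10 to 13). By cluster they were 0.75, 1.07 and 1.01 in HoxA, 0.24, 0.24 and 1.04 in HoxB, and 0.17, 0.32 and 0.56 in HoxC, while HoxD had 0.33 upstream, 0.69 downstream and 1 tested body at -0.09. Among all tested Hox windows the medians were 0.33, 0.63 and 0.81, against -0.09, 0.02 and -0.03 for all genes tested. The count filter can be met by 1 group alone, so windows low in controls could be tested because of the knockouts. With no filter the Hox medians were 0.49, 0.69 and 0.78, against -0.10, -0.002 and -0.02 for all genes. Both knockouts lay above both controls at 12 of 30 tested Hox windows upstream, 10 of 20 bodies and 16 of 27 downstream, where 37.8%, 40.6% and 29.9% of all tested genes did so. The Hox medians stayed above 0 under all 4 other scalings, from 0.14 to 1.22 upstream, 0.62 to 1.28 over bodies and 0.59 to 1.11 downstream. The median of all genes moved with scaling, to -0.27, 0.36 and -0.23 with library totals, to 0.46 upstream and 0.24 over bodies with totals pooled over the classes and to 0.83, 0.67 and 0.27 with scaling on olfactory and vomeronasal receptor genes.

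Over the whole table, the folds differed with base composition. Genes with a CpG-rich start (observed over expected CG at least 0.6 within 500 bases on each side) had medians of 0.93, 0.60 and 0.21 over the whole table and other genes -0.71, -0.47 and -0.22. Of the 39 Hox genes 24 had such a start, and 18, 9 and 17 of these were tested in the 3 classes. Their medians were 0.20, 0.32 and 0.70. Of the other 15 Hox genes, 12, 11 and 10 were tested, with medians of 0.42, 0.87 and 0.93. Among the tested Hox windows the order was thus the reverse of that over the whole table. Hox gene bodies had a median GC content of 52.8%, against 45.6% for all genes. With a correction for GC content in each library, the Hox medians were 0.10, 0.14 and 0.70. The part of CpG content in the Hox values was not tested further.

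Likeness of pattern was measured as the mean absolute difference of centred log2 CPM over the 4 libraries, within a class. Over the gene body, the pattern of Hoxa9 lay nearest to Hoxa10 (0.23), Hoxa7 (0.26) and Hoxc10 (0.31), of 19 members compared. For Hoxb4 the nearest were Hoxa7 (0.66), Hoxb2 (0.75) and Hoxa9 (0.84). Upstream, Hoxa9 was nearest to Hoxc10 (0.12), Hoxa3 (0.19) and Hoxa4 (0.20) of 29 members.

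The cofactors and regulators of Hox genes were described from lists of known members. As given above, 24.0%, 23.1% and 10.8% of all tested genes rose upstream, over the body and downstream, and 14.3%, 15.2% and 2.29% fell; of genes with a CpG-rich start, 42.7%, 36.01% and 14.1% rose. Of the TALE cofactors, 5 of 9 tested rose upstream and 1 fell, over the gene body 0 of 10 rose and 3 fell, and downstream 1 of 8 rose and 1 fell. Pknox1, a Meis-related factor, had 11 and 24 upstream counts in controls and 122 and 66 in knockouts (log2 fold 2.83 ± 0.54), Pbx2 rose upstream by 2.19 ± 0.51 and Meis1 by 1.69 ± 0.54 (adjusted p 5.36e-06 to 0.00879). The bodies of Meis2 and Pknox2 fell by 1.13 and 1.18 on the log2 scale, and downstream Meis1 rose by 2.58. Of the activators of Hox loci, such as the MLL and DOT1L complexes, 11 of 20 rose upstream and 1 fell, 9 of 21 rose over the body and 1 fell, and 5 of 16 rose downstream. The smallest p values upstream belonged to Dot1l, an H3K79 methyltransferase (25 and 19 counts in controls, 352 and 169 in knockouts; log2 fold 3.96 ± 0.78), Kmt2b (2.42 ± 0.50) and Nup98 (2.44 ± 0.50). Men1, an adaptor of MLL complexes, rose over the body by 2.92 ± 0.51 and Brpf1, an HBO1 scaffold, by 2.10 ± 0.46. Of the Polycomb genes that repress Hox loci, 8 of 15 rose upstream, 7 of 16 over the body and 1 of 14 downstream, and none fell. Jarid2, a partner of Polycomb complex PRC2, had 25 and 22 upstream counts in controls and 182 and 71 in knockouts (2.83 ± 0.58), and Phc1 rose by 2.40 ± 0.49.

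Of the homeobox genes outside the clusters, 1 of 34 rose upstream, 3 of 30 rose and 4 fell over the body, and 2 of 35 rose downstream, with medians of -0.49, -0.10 and -0.07. Hhex, a homeobox gene of blood and liver development, rose in all 3 classes, by 1.94, 3.19 and 1.39. The bodies of Lhx1 and Pax7 passed in opposite directions, at 2.04 ± 0.57 and -0.97 ± 0.29. Among 20 genes of the list of cluster neighbours and non-coding genes found in the tables, 1 of 14 rose upstream, 2 of 13 over the body and 3 of 13 downstream, and none fell. Skap2, which flanks the HoxA cluster, had 7 and 13 upstream counts in controls and 46 and 23 in knockouts (2.18 ± 0.53). The body of Hoxaas3, an antisense RNA gene of HoxA, had 3 and 0 counts in controls and 17 and 10 in knockouts. Olfactory and vomeronasal receptor genes, silent in blood, had medians of -0.96, -0.86 and -0.36.

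**Figure D5:**
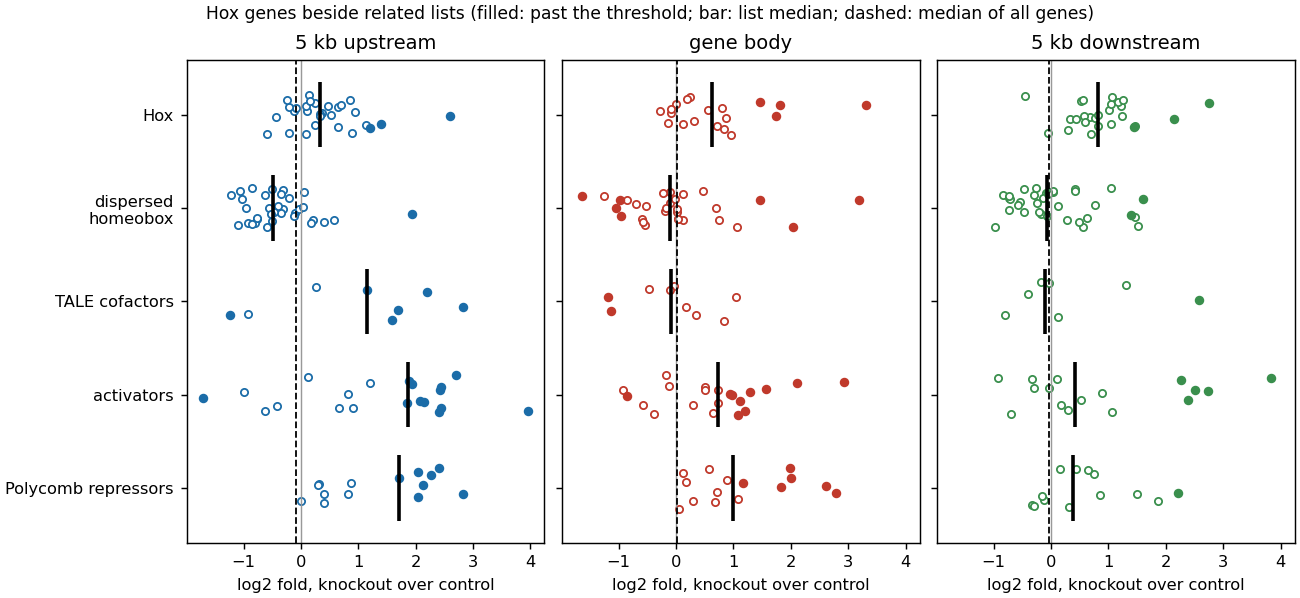
Log2 fold of H3K14ac, knockout over control, for tested windows of the Hox genes and 4 related lists in the 3 region classes (filled: adjusted p under 0.05; bars: medians of whole lists, a few members of which are not drawn; dashed line: median of all genes tested). Hox medians are 0.33, 0.63 and 0.81; upstream, they lie between the dispersed homeobox genes and the activator and Polycomb lists.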

How the data were processed

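The deposited values are counts per gene, made by the authors with featureCounts on mm10, per the submitters' processing notes, over the gene body and 5 kb upstream and downstream; the deposited tables also hold a gene length. Aligner, strand setting and duplicate handling are not given in the sources used here. Gene names came from RefSeq by Entrez identifier: 25275 of 27179 genes had a symbol. Annotated spans (GRCm38.p6) matched 26 of 39 deposited Hox lengths exactly and 13 approximately.

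Each class was filtered (filterByExpr, count of at least 10), scaled (TMM) and fitted by edgeR 4.0.16 (limma 3.58.1, R 4.3.3), 2 control against 2 knockout libraries, with Benjamini-Hochberg adjustment over all genes tested and threshold 0.05. The fit was tested on simulated data. Values came from Python 3.11.15 with pandas 2.3.3. DESeq2 1.42.0, limma-trend, other scalings, filters, a GC correction, a replicate block and leaving out each library were alternatives. The members, lists and tests were chosen with earlier results of these data known. Named genes are all called members, the densest and sparsest control member of each cluster, and up to 3 genes with the smallest p of each related list. PCR reads are not independent molecules. A further control library, made with an HBO1 antibody, is not analysed here. Values of 1 member and 2 genes of the related lists are counted in totals and not reported here by name.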

Additional observations from a re-analysis of the deposited data

How the results depend on the processing

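No Hox window fell under any setting run, and in the fits of the 11 called windows 120 kept the call, 45 lost it and 0 changed direction. The Hoxb4 body and the Hoxa2 downstream window kept it in every setting run; the other 9 lost it in at least 2. Upstream, the count of Hox genes called higher was 4. It became 2 with library totals, the DESeq2 Wald test or the GC correction. It was also 2 among only the 22 tested members with no other start site in the window. It became 8 with totals pooled over the classes and 7 with receptor scaling. Of all genes tested upstream, 5557 of 23200 were called higher in the main fit. That count was 4342 with library totals, 4504 with the Wald test, 7668 with pooled totals and 7187 with receptor scaling. With the GC correction it was 4913 of 21811. Over gene bodies the count of 4 became 2 with the Wald test or the GC correction. With a mean count of at least 50 it became 0 of 3 tested (all other windows were below it). Of all gene bodies, 4935 of 21393 were called higher in the main fit and 4185 with the Wald test. With the GC correction 4396 of 20616 were, and with the filter on the mean count 3309 of 15535. Downstream the 3 became 1 of 2 tested with that filter. The called windows of Hoxa2 and Hoxa10 were below it and had no test. Of all genes downstream, 965 of 7072 were called higher with it, against 2338 of 21566 in the main fit. Upstream no Hox window passed that filter, so no value was obtained. With 1 library left out, the median Hox log2 fold was 0.14 to 0.77 upstream, 0.36 to 1.27 over bodies and 0.435 to 1.34 downstream. These fits have fewer samples, and the lone library is assumed to vary like the others. Upstream, the calls of Hox genes and those of the whole table both dropped in each of these fits. Over gene bodies and downstream, Hox calls dropped without either control and rose without knockout replicate 2. The causes of these shifts were not tested. The median gene body density of Hox genes relative to all genes was 0.363 to 0.383 under other scalings and lengths.

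The labels give both groups replicate numbers 1 and 2, but same-numbered libraries did not deviate together (correlations of -0.284, -0.359 and -0.22 upstream, over the body and downstream). With the replicate number as a block, the counts of Hox genes called higher were 2, 1 and 2, and those of all genes 3474, 2792 and 2098. With the numbers crossed, a setting chosen after seeing the data, the Hox counts were 5, 6 and 6. Those of all genes were then 6454, 6498 and 3314.

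Of 117 Hox windows, 40 had too few counts for the filter, 5 of them at 0 in every library, in DNA shared with other genes. With no filter, 39, 35 and 38 Hox windows were tested and 5, 4 and 2 were called higher. Of all genes, 5619 of 26328, 4585 of 24662 and 1775 of 26146 were. Upstream the 5 Hox calls included windows outside the 4 called with the filter, since Hoxd3 lost its call.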
